A study of Danio rerio with 18 samples.

Results

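A set of 7 genes that report on fibroblast growth factor (Fgf) signalling were followed through fin regeneration in zebrafish exposed to TCDD or to vehicle: il17rd, spry4, spry2, dusp6, etv4, etv5b and fgfr1a. All probe sets that carry these 7 symbols in the platform annotation were taken, which gave 7 of the 8793 genes with a symbol on the array, and 10 of the 15502 probe sets tested. There were 3 for spry2, 2 for dusp6 and 1 for each of the other genes. Expression had been measured in adult male zebrafish of the AB strain whose caudal fin was cut at the point where the rays branch. The fish were injected intraperitoneally with phosphatidylcholine liposomes, either empty (vehicle) or loaded with TCDD to 50 ng per g of fish, and fin tissue was taken 1, 3 or 5 days post amputation (dpa). TCDD is 2,3,7,8-tetrachlorodibenzo-p-dioxin, an environmental contaminant and a ligand of the aryl hydrocarbon receptor. The 6 groups were vehicle and TCDD at each of the 3 days, with 3 arrays in each and fins of 10 fish pooled on each array. The second cut lay up to 2 ray segments on the body side of the first, so that the tissue held some stump beside the regenerate.

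Fgf ligands bind receptor tyrosine kinases at the cell surface and switch on the Ras-MAPK cascade, which in turn induces Ets transcription factors such as Etv4 and Etv5. The same cascade induces its own inhibitors: Il17rd (also called Sef), which acts at the membrane, the Sprouty proteins, which act on the relay to Ras, and Dusp6, a phosphatase that inactivates the kinase ERK. These inhibitors and the Ets factors are widely used as readouts of Fgf signalling, and in the zebrafish fin this signalling is required for the blastema to form and for outgrowth to go on.

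Values are log2(intensity + 1) unless another scale is named. Probe sets were ranked by level only to grade how bright they were. Their levels were not compared as amounts of transcript, since each has its own probes. The array medians lay between 75.13 and 84.12 intensity units. As a measure of RNA integrity, GAPDH control probes at the 3' end were compared with those at the 5' end, and the log2 difference averaged 1.86 to 2.62 by group. It was 3.38 and 4.06 on the vehicle and TCDD arrays of letter C at 3 dpa. On the letter B arrays at 1 dpa it was 3.03 for vehicle and 2.95 for TCDD. Actin controls, compared likewise, gave 1.87 to 2.24 on the vehicle arrays and 1.61 to 1.66 on the TCDD arrays at 5 dpa, and the part of this gap in the 5 dpa results was not tested. Results that rest on 3 dpa are also given without these 2 arrays where that ends a call. All 11 markers of epidermis were measured and none was dim (under the 40th percentile of probe sets), and 9 of 10 markers of blastema mesenchyme were above that level, msx1a being the exception. Of the markers of skeletal muscle, 5 of 6 were dim, and so were 4 of 6 of nerve and glia.

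Il17rd, spry4, etv4, etv5b and the brighter dusp6 probe set were well measured, with mean levels between the 78.4th and the 95th percentile of all probe sets. The second dusp6 set and the first spry2 set lay near the middle, at the 45.4th and 43.1st percentiles. Spry2 sets 2 and 3 and the only fgfr1a set were dim, at percentiles of 37.4, 1.06 and 12.5. Spry2 set 3 and fgfr1a lie among the low readings of every array, and no statement on their transcripts rests on them.

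**Figure D1:**
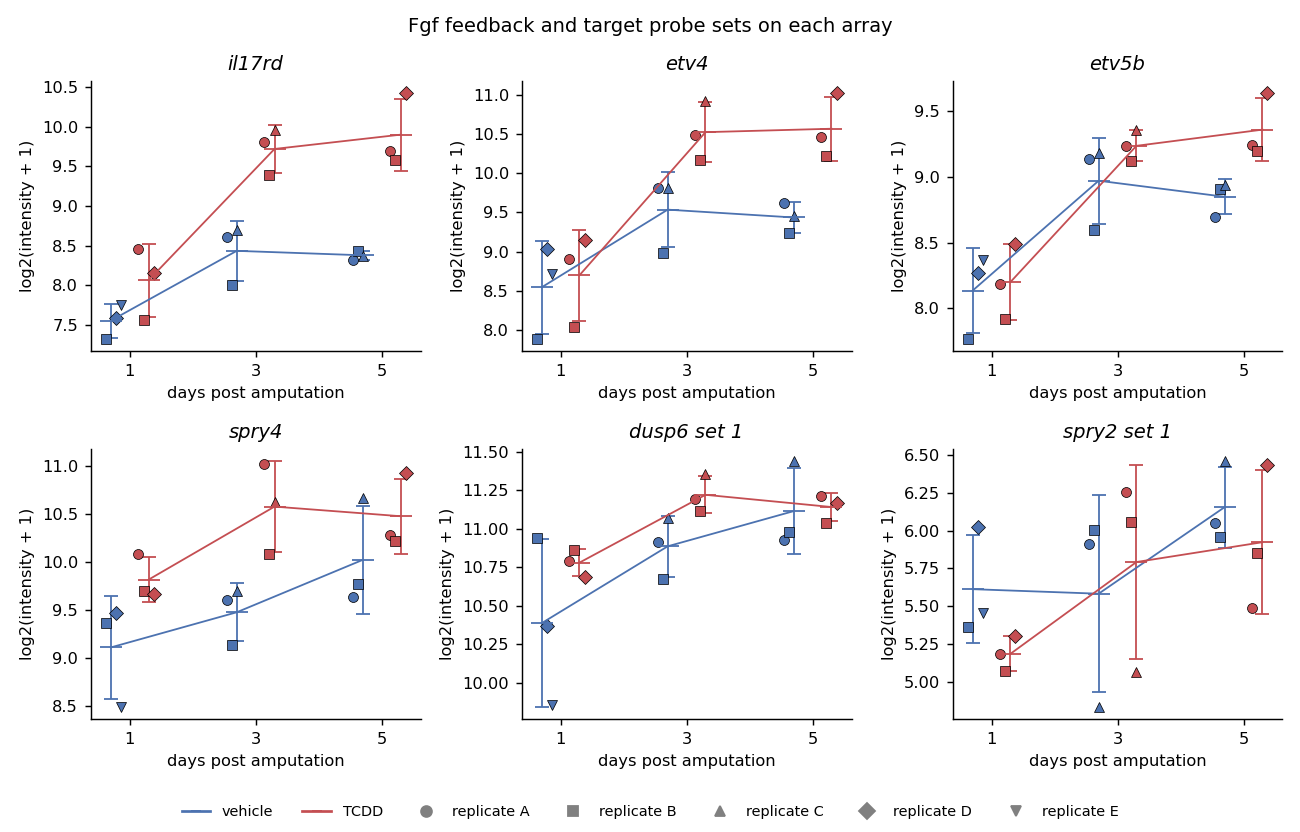
Each point is 1 array, on a vertical axis of log2(intensity + 1), against days post amputation on the horizontal axis. Vehicle is blue and TCDD red, marker shapes give the replicate letters, horizontal ticks are group means joined by lines, and bars are the SD (n = 3). At 3 and 5 dpa all TCDD arrays of il17rd and etv4 lie above all vehicle arrays of the same day, while the groups of spry2 set 1 overlap at 3 and 5 dpa.

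With TCDD, il17rd, spry4 and etv4 were higher for the mean of the 3 days, il17rd by 2.15-fold and the other 2 by 1.69-fold each. In the fit without the replicate letter, the calls of spry4 and etv4 were close to the threshold. They were lost in several alternatives without the letter, given below. Both passed with the letter as a block. At single days only il17rd passed in the fit without the replicate letter, at 3 dpa and at 5 dpa. Of the 10 probe sets, 0 passed at 1 dpa, where 0.245% of all probe sets passed. At 3 dpa 1 passed against a background of 1.11%, and at 5 dpa 1 against 1.64%. For the mean of the 3 days, 3 of 10 passed, all upward, against 3.78% of all probe sets. The median log2 difference of the 10 was 0.163, 0.237 and 0.0629 at 1, 3 and 5 dpa, beside medians of 0.0463, 0.0447 and -0.0357 over all probe sets. With the replicate letter as a block, 3 of 10 passed at 3 dpa (il17rd, spry4 and etv4) and 2 at 5 dpa (il17rd and etv4). For the mean of the 3 days 4 passed in that fit (il17rd, spry4, etv4 and etv5b). Of all 15502 probe sets, 489, 520 and 1063 passed in that fit at 3 dpa, at 5 dpa and for the mean. In bulk tissue a change in the number of cells that express a gene and a change in RNA per cell cannot be told apart.

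Il17rd, the membrane inhibitor, had the largest difference of the 10 probe sets at 3 dpa, at 5 dpa and for the mean of the 3 days. At 1 dpa its log2 level was 7.33, 7.59 and 7.75 on vehicle arrays B, D and E, and 8.46, 7.57 and 8.16 on TCDD arrays A, B and D. The groups overlapped through TCDD array B, and the difference of 0.51 ± 0.26 (log2, SE) did not pass (adjusted p = 0.665). At 3 dpa the level was 8.61, 8.001 and 8.70 on vehicle arrays A, B and C, and 9.81, 9.39 and 9.96 on the TCDD arrays of the same letters. The lowest TCDD array stood above the highest vehicle array. The rise was 1.28 ± 0.26, or 2.43-fold (adjusted p = 0.0267).

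At 5 dpa the il17rd level was 8.33, 8.44 and 8.37 on vehicle arrays A, B and C, and 9.70, 9.58 and 10.42 on TCDD arrays A, B and D. The vehicle arrays had an SD of 0.06, and again no TCDD array came near them. This rise was 1.52 ± 0.26, or 2.87-fold (adjusted p = 0.00866), which put il17rd at rank 60 of 15502 by p. Its mean effect over the days was 1.104 ± 0.15 (adjusted p = 0.000512, rank 74). The calls at 5 dpa and for the mean held in all alternatives run. The call at 3 dpa was lost without vehicle array A or B of that day, without TCDD array A or C (adjusted p up to 0.129), without both letter C arrays, and when the fit held those 2 groups alone (adjusted p up to 0.185 over all alternatives).

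Ordered by mean, the il17rd level was 7.56 ± 0.22 in vehicle at 1 dpa, 8.06 ± 0.46 in TCDD at 1 dpa, 8.38 ± 0.06 in vehicle at 5 dpa and 8.44 ± 0.38 in vehicle at 3 dpa. Above these came TCDD at 3 dpa, with 9.72 ± 0.30, and at 5 dpa, with 9.90 ± 0.46 (SD, n = 3 throughout). Each pair of neighbours in this order overlapped, except for the step from vehicle to TCDD at 3 dpa.

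Etv4, an Ets transcription factor induced by Fgf, showed the next clearest separation. At 1 dpa it read 7.89, 9.03 and 8.72 on vehicle arrays B, D and E, and 8.91, 8.04 and 9.15 on TCDD arrays A, B and D. The groups lay over each other, with letter B the lowest array in both. At 3 dpa vehicle arrays A, B and C read 9.81, 8.98 and 9.81, and the TCDD arrays 10.49, 10.16 and 10.92. At 5 dpa vehicle arrays A, B and C read 9.62, 9.23 and 9.45, and TCDD arrays A, B and D 10.46, 10.22 and 11.02. On both days every TCDD array was above every vehicle array.

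The etv4 difference at 1 dpa was 0.15 ± 0.34 (adjusted p = 0.948). Those at 3 and 5 dpa were 0.99 ± 0.34 (adjusted p = 0.252) and 1.13 ± 0.34 (adjusted p = 0.109), so that neither passed without the letter. With the letter as a block the differences at 3 and 5 dpa were 0.99 ± 0.15 (adjusted p = 0.00415) and 1.00 ± 0.16 (adjusted p = 0.00795), and both passed. The mean over the days was 0.76 ± 0.20 (adjusted p = 0.0456), and 0.74 ± 0.09 with the block (adjusted p = 0.000684). Without the block this mean was close to the threshold: it passed in 4 of 18 fits with 1 array left out, with adjusted p up to 0.0989. The call was kept only without vehicle D or TCDD B at 1 dpa, or TCDD B at 3 or 5 dpa, and was lost without any other array, without both letter C arrays of 3 dpa, and with a constant variance prior (adjusted p up to 0.107).

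Etv5b, a second Ets factor of the same subfamily, moved less. Its vehicle arrays read 9.14, 8.60 and 9.18 at 3 dpa and its TCDD arrays 9.23, 9.12 and 9.36, which overlap. At 5 dpa vehicle arrays A, B and C read 8.70, 8.91 and 8.94, below TCDD arrays A, B and D at 9.24, 9.20 and 9.64. The differences of 0.06 ± 0.20, 0.27 ± 0.20 and 0.51 ± 0.20 at 1, 3 and 5 dpa did not pass (adjusted p = 0.964, 0.687 and 0.206). For the mean of the days the difference was 0.28 ± 0.12 (adjusted p = 0.242), and it passed in 1 of 27 alternatives, with the letter as a fixed term, at 0.31 ± 0.08 (adjusted p = 0.0332). It did not pass with the letter as a random block, nor when only letters present in vehicle and TCDD were kept.

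Spry4, a Sprouty inhibitor of receptor tyrosine kinase signalling, was the only member with every TCDD array above every vehicle array at 1 dpa. On that day vehicle arrays B, D and E read 9.37, 9.47 and 8.49, all under TCDD arrays A, B and D at 10.09, 9.70 and 9.67. At 3 dpa vehicle arrays A, B and C read 9.60, 9.13 and 9.69, and TCDD arrays 11.02, 10.08 and 10.63, again without overlap. At 5 dpa the groups overlapped: vehicle array C, at 10.67, exceeded TCDD arrays A and B, at 10.28 and 10.22, while vehicle A and B read 9.63 and 9.77 and TCDD array D 10.93.

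The spry4 difference was 0.71 ± 0.32 at 1 dpa (adjusted p = 0.614), 1.1 ± 0.32 at 3 dpa (adjusted p = 0.154) and 0.45 ± 0.32 at 5 dpa (adjusted p = 0.487). That at 3 dpa passed with the letter as a block, at 1.1 ± 0.24 (adjusted p = 0.0303). With the block the mean was 0.67 ± 0.15 and passed (adjusted p = 0.0191). Without the letter the mean of 0.75 ± 0.19 passed (adjusted p = 0.0345), a call close to the threshold. It was lost without any 1 of these arrays: vehicle E or TCDD A or B at 1 dpa, vehicle A or B or TCDD A or C at 3 dpa, or vehicle A or B or TCDD D at 5 dpa, with adjusted p up to 0.0771. Without both letter C arrays of 3 dpa it was lost as well (adjusted p up to 0.0861 over all alternatives).

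The spry2 probe sets, for a second Sprouty gene, showed no passing TCDD difference. The first set read 5.36, 6.02 and 5.46 on vehicle arrays B, D and E at 1 dpa, and 5.18, 5.07 and 5.30 on TCDD arrays A, B and D. All TCDD arrays were below all vehicle arrays there, with a difference of -0.43 ± 0.35 that did not pass (adjusted p = 0.837). The share of all probe sets separated downward was not counted. At 3 dpa it read 5.91, 6.002 and 4.84 on vehicle arrays A, B and C and 6.25, 6.06 and 5.06 on the TCDD arrays, letter C being low under both exposures. At 5 dpa it read 6.05, 5.96 and 6.46 on vehicle arrays A, B and C, and 5.49, 5.85 and 6.43 on TCDD arrays A, B and D. The mean difference was -0.15 ± 0.20 for set 1 (adjusted p = 0.789), -0.08 ± 0.20 for set 2 (adjusted p = 0.895) and 0.004 ± 0.03 for set 3 (adjusted p = 0.966). Sets 1 and 2 followed each other closely over arrays (r = 0.89, n = 18), and set 3, at 2.35 to 2.62 on every array, did not follow them (r = -0.37 and -0.45).

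Dusp6, the ERK phosphatase, was bright in its first probe set, and its differences between exposures did not pass. At 1 dpa this set read 10.94, 10.37 and 9.85 on vehicle arrays B, D and E, and 10.79, 10.86 and 10.69 on TCDD arrays A, B and D. The vehicle arrays spread over a wider range than the TCDD arrays and enclosed them. At 3 dpa it read 10.92, 10.67 and 11.07 on vehicle arrays A, B and C, just under 11.19, 11.12 and 11.35 on the TCDD arrays. At 5 dpa vehicle arrays A, B and C read 10.93, 10.98 and 11.44, and TCDD arrays A, B and D 11.21, 11.04 and 11.17, within the vehicle range.

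Differences of dusp6 set 1 were 0.39 ± 0.21, 0.33 ± 0.21 and 0.03 ± 0.21 at 1, 3 and 5 dpa, and 0.25 ± 0.12 for the mean (adjusted p = 0.68, 0.611, 0.961 and 0.333). The dimmer second set differed by 0.40 ± 0.20, 0.11 ± 0.20 and -0.07 ± 0.20, and by 0.15 ± 0.11 for the mean (adjusted p = 0.65, 0.897, 0.891 and 0.599). None of these differences passed. With the letter blocked those of set 1 were 0.09 at 1 dpa, 0.33 ± 0.12 at 3 dpa and 0.20 at 5 dpa, and did not pass either. The receptor gene fgfr1a read 3.04 to 3.56 on all arrays, and its mean difference was 0.03 ± 0.05 (adjusted p = 0.824).

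Seen as separation of groups, every TCDD array was above every vehicle array for 1 of the 10 probe sets at 1 dpa (spry4), where 8.76% of all probe sets did so. At 3 dpa there were 4 (il17rd, spry4, etv4 and dusp6 set 1) against 13% of all, and at 5 dpa 3 (il17rd, etv4 and etv5b) against 10.4%. The count at 1 dpa was thus near the background. Il17rd and etv4 were the genes that separated at both 3 and 5 dpa. How many of all probe sets did so on both days was not counted.

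**Figure D2:**
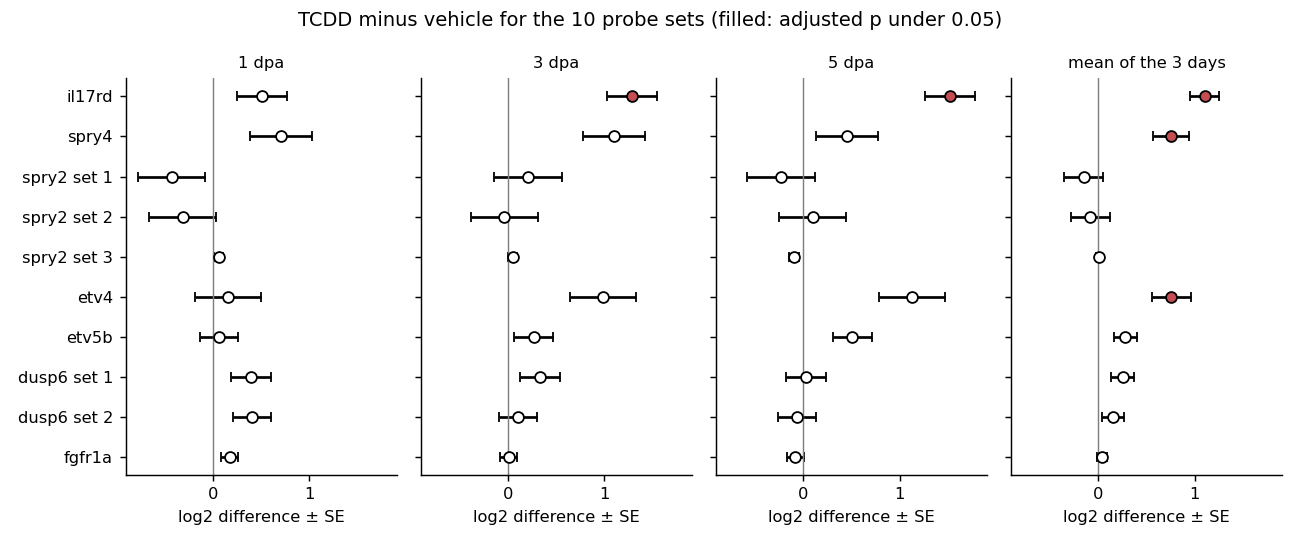
TCDD minus vehicle (log2 difference, horizontal axis) for the 10 probe sets at each day and for the mean of the 3 days; bars are the SE from limma and filled points have an adjusted p under 0.05. Il17rd is filled at 3 dpa (1.28), 5 dpa (1.52) and for the mean (1.104), and spry4 and etv4 are filled for the mean alone.

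Arrays that carried the same replicate letter on the same day were compared pair by pair, since the letters were taken to pair the arrays. Il17rd was higher with TCDD in 7 of 7 pairs, by 0.24 to 1.39, and spry4 in 7 of 7, by 0.20 to 1.42. Etv4 was higher in 7 of 7, by 0.12 to 1.18, and etv5b in 7 of 7, by 0.10 to 0.54. Dusp6 set 1 was higher in 6 of 7 pairs and set 2 in 5 of 7. Spry2 set 1 was higher in 3 pairs, set 2 in 2, set 3 in 5 and fgfr1a in 2. How many of all probe sets were higher in every pair was not counted. The pairs use the arrays of the fits above and are not separate evidence. For il17rd the pairs at 1 dpa gave 0.24 and 0.57, those at 3 dpa 1.21, 1.39 and 1.26, and those at 5 dpa 1.37 and 1.14. For etv4 the pairs at 1 dpa gave 0.16 and 0.12, and those at the later days 0.68 to 1.18. Both genes thus had smaller pair differences at 1 dpa than in any pair of the later days.

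**Figure D3:**
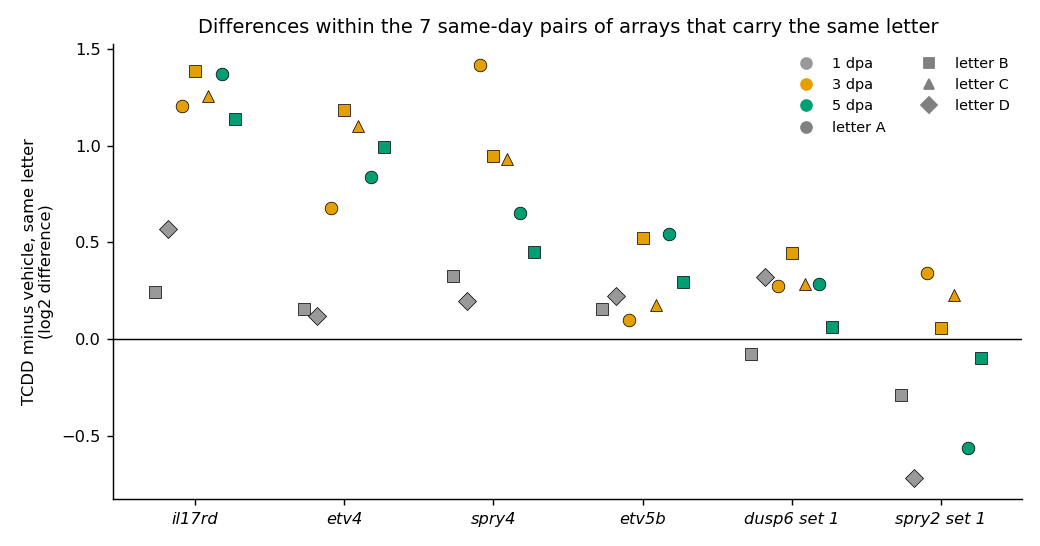
Each point is the log2 difference, TCDD minus vehicle, of 1 pair of arrays with the same letter and day; colours give the day and shapes the letter. All 7 pairs lie above 0 for il17rd, etv4, spry4 and etv5b, and 3 of 7 for spry2 set 1.

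A difference of the TCDD effect between days was tested directly, by an F test over the 3 days. Of all probe sets 0.0516% passed, and 0 of the 10 did. The lowest value among the members was that of il17rd (limma adjusted p = 0.38, 0.038 unadjusted), followed by spry2 set 3, at background level (adjusted p = 0.496), and etv4 (adjusted p = 0.564). Between 1 and 5 dpa the il17rd effect grew by 1.01 ± 0.37 (adjusted p = 0.217) and the etv4 effect by 0.98 ± 0.49 (adjusted p = 0.365). The smaller effect at 1 dpa is therefore a description of these arrays and not a difference that passed.

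In vehicle fish, the calls among these genes were rises from 1 dpa to the later days. From 1 to 3 dpa etv5b rose by 0.84 ± 0.20 (adjusted p = 0.0234), and it was the 1 member of 10 to pass, against 5.51% of all probe sets. With the letter as a block il17rd and etv4 passed too. They rose by 0.99 ± 0.25 (adjusted p = 0.0395) and 1.19 ± 0.19 (adjusted p = 0.00393). Without it they were at 0.88 ± 0.26 (adjusted p = 0.0654) and 0.99 ± 0.34 (adjusted p = 0.117). The block sets vehicle array E of 1 dpa aside, and only letter B is shared by these vehicle groups. The etv5b call was lost without vehicle array B at 1 dpa or vehicle array A or C at 3 dpa (adjusted p up to 0.125), and without both letter C arrays (adjusted p up to 0.19 over all alternatives). The il17rd step passed without TCDD B at 1 dpa, vehicle B at 3 dpa or TCDD D at 5 dpa, and that of dusp6 set 1, at 0.50 ± 0.21 (adjusted p = 0.206), without vehicle B at 1 dpa (adjusted p = 0.0187). From 3 to 5 dpa 0 of 10 passed, against 0.342% of all. Over that step il17rd, etv4 and etv5b were at -0.06 ± 0.26, -0.10 ± 0.34 and -0.12 ± 0.20, while 7 of the 10 differences were above 0.

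From 1 to 5 dpa in vehicle fish, 3 of 10 passed, all upward, against 17.3% of all probe sets, so that the share is not far from the background. Il17rd rose by 0.82 ± 0.26 (adjusted p = 0.0411), etv5b by 0.71 ± 0.20 (adjusted p = 0.0227) and dusp6 set 1 by 0.73 ± 0.21 (adjusted p = 0.0251). With the letter as a block dusp6 set 1 was at 0.25 ± 0.15 and did not pass (adjusted p = 0.335), while etv4, at 0.89 ± 0.34 without it (adjusted p = 0.0921), rose by 1.09 ± 0.19 (adjusted p = 0.00278). Spry4 was at 0.91 ± 0.32 (adjusted p = 0.0675). Here too the block sets vehicle array E of 1 dpa aside, with only letter B shared.

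These vehicle calls rested on single arrays in part. The il17rd call was lost without any 1 vehicle array of 1 or 5 dpa, and without TCDD D at 1 dpa or TCDD A at 3 dpa (adjusted p up to 0.115). That of etv5b was lost without vehicle B at 1 dpa or vehicle B or C at 5 dpa (adjusted p up to 0.0889). For dusp6 set 1 it was lost without vehicle D or E at 1 dpa or vehicle C at 5 dpa (adjusted p up to 0.124), and dusp6 set 2, at 0.28 ± 0.20, passed without vehicle B at 1 dpa (adjusted p = 0.0393).

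In TCDD fish il17rd, etv4 and etv5b also rose after 1 dpa. From 1 to 3 dpa il17rd rose by 1.65 ± 0.26 (3.15-fold, adjusted p = 0.00107), etv4 by 1.82 ± 0.34 (3.54-fold, adjusted p = 0.00315) and etv5b by 1.04 ± 0.20 (2.05-fold, adjusted p = 0.00385). The dim fgfr1a set fell by 0.35 ± 0.09 (adjusted p = 0.0201), so that 4 of 10 passed, against 10.8% of all probe sets. This set read only 3.04 to 3.56 on all arrays, and its fall is not read as one of the transcript. From 3 to 5 dpa 0 of 10 passed, against 0.0129% of all. From 1 to 5 dpa 5 of 10 passed, against 19.1% of all: il17rd rose by 1.83 ± 0.26 (adjusted p = 0.00027), etv4 by 1.87 ± 0.34 (adjusted p = 0.00156), etv5b by 1.16 ± 0.20 (adjusted p = 0.00106) and the dim spry2 set 2 by 1.27 ± 0.35 (adjusted p = 0.019), and fgfr1a fell by 0.31 ± 0.09 (adjusted p = 0.0238). Dusp6 set 1, at 0.36 ± 0.21, passed once the letter was blocked (adjusted p = 0.0432).

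The TCDD course calls of il17rd, etv4 and etv5b held in all 28 alternatives. Those of fgfr1a and spry2 set 2 did not: from 1 to 3 dpa fgfr1a was lost without TCDD A at 1 dpa or TCDD A or B at 3 dpa (adjusted p up to 0.08). From 1 to 5 dpa fgfr1a was lost without TCDD A or D at 1 dpa or TCDD B at 5 dpa (adjusted p up to 0.0882), and spry2 set 2 without TCDD A at 1 dpa or TCDD B or D at 5 dpa (adjusted p up to 0.0933). The vehicle and TCDD courses and the TCDD differences share arrays, so that they are not separate evidence. The direct test of a course that differs between exposures is the F test above, which no member passed.

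Single arrays departed from their group means in like ways for some members. Over the 18 arrays the departures of il17rd correlated with those of etv4 (r = 0.84) and etv5b (r = 0.82), and those of etv4 with etv5b (r = 0.88). Departures of spry4 went with those of dusp6 set 1 (r = 0.69), and less with those of il17rd (r = 0.44). Il17rd and dusp6 set 1 did not depart together (r = -0.04), nor did etv4 and dusp6 set 1 (r = -0.17). All 6 arrays of letter B were below their group mean for etv4, and 5 of 6 for il17rd. The part of the letter in these correlations was not tested. These correlations are descriptions over arrays that share letters, labelling and normalization.

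**Figure D4:**
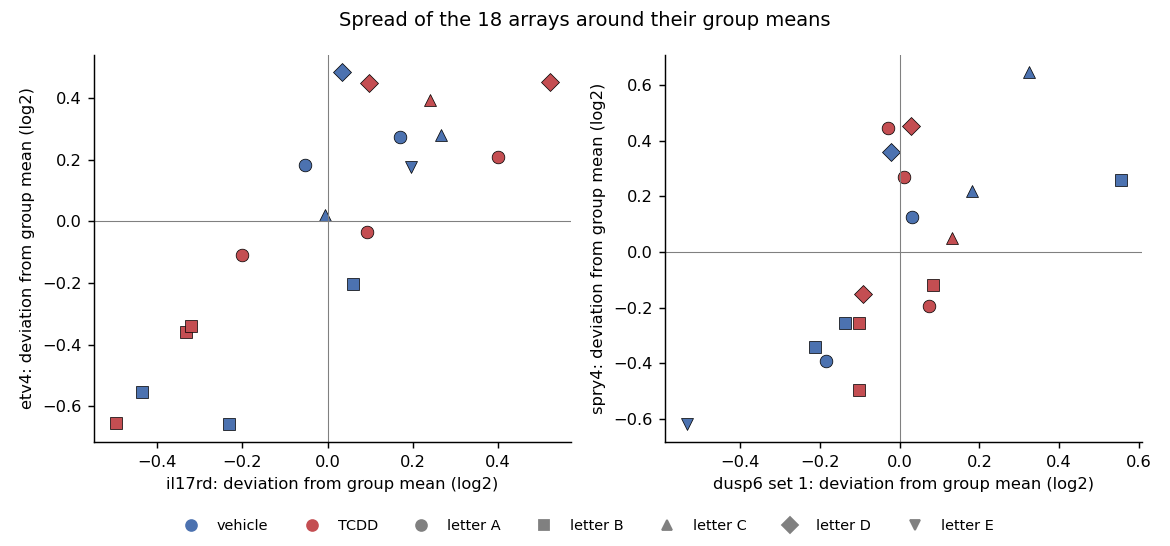
Each point is 1 of the 18 arrays, plotted as the log2 departure from its group mean of etv4 against il17rd (left) and of spry4 against dusp6 set 1 (right). Colours give the exposure and shapes the letter. The points rise together in both panels (r = 0.84 and 0.69), with most arrays of letter B at the lower left for etv4 and il17rd.

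Among the 7458 other probe sets that carry 1 gene name and average at least 5 on the log2 scale, those most like each member over the 18 arrays were found by Pearson's r. For il17rd they were bambia (r = 0.955), a pseudoreceptor that dampens TGF-beta and BMP signalling, atg101 (r = 0.945), an autophagy factor, and smad7 (r = 0.94), an inhibitory Smad. For etv4 they were aplp2 (r = 0.967), an amyloid precursor-like protein, atg101 (r = 0.932) and si:dkey-42i9.4 (r = 0.928). For etv5b they were gdf6a (r = 0.947), a BMP family ligand, sox11b (r = 0.934), a transcription factor, and aplp2 (r = 0.933). Il17rd and etv4 thus shared atg101, and etv4 and etv5b shared aplp2.

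Spry4 had lower likenesses, with cox6b1 (r = 0.882), a subunit of cytochrome c oxidase, krt17 (r = 0.851), a keratin, and smad7 (r = 0.847). Dusp6 set 1 was most like cdkn1bb (r = 0.908), a cyclin-dependent kinase inhibitor, tsc22d3 (r = 0.884), known in mammals as a glucocorticoid-induced gene, and colec12 (r = 0.867), a collectin scavenger receptor. For spry2 set 1 they were esd (r = 0.896), pacsin3 (r = 0.882) and ddx17 (r = 0.873), and for the dim fgfr1a set kpnb1 (r = 0.859), larp1 (r = 0.84) and kif20a (r = 0.807). These values contain both the group differences and the spread between arrays.

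Other genes of the pathway were counted from lists by role, of which 46 of 103 listed genes were measured. Of these, 0 passed with TCDD at 1 dpa, 2 at 3 dpa, 0 at 5 dpa and 2 for the mean, where 1 rose (dusp7) and 1 fell (myca). Over all probe sets 0.245%, 1.11%, 1.64% and 3.78% passed in these comparisons, so the share for the mean was near that background. The median mean difference of the 46 was 0.0633, beside 0.0195 over all probe sets. Of 10 ligands measured, 8 were dim, and 0 passed at any day or for the mean. The dim fgf13a and fgf3 had mean differences of -0.18 ± 0.07 and -0.40 ± 0.17 (adjusted p = 0.215 and 0.279). Fgf10a, a mesenchymal ligand, came closest: its mean levels at 5 dpa were 6.53 ± 0.21 in vehicle and 7.63 ± 0.45 in TCDD fish, a difference of 1.1 ± 0.27 (adjusted p = 0.0504), which passed once the letter was blocked (adjusted p = 0.048). It also passed without TCDD B or D at 1 dpa or TCDD C at 3 dpa (adjusted p down to 0.022 over all alternatives). Its mean difference of 0.57 ± 0.15 (adjusted p = 0.0534) passed without TCDD D at 1 dpa or TCDD B at 3 dpa (adjusted p down to 0.0327). Fgf24 differed by 1.14 ± 0.41 at 3 dpa (adjusted p = 0.27), and passed with the block (adjusted p = 0.00547).

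Of 7 receptors, co-receptors and binding proteins measured, 0 passed with TCDD. The receptor fgfr2 was at 8.99, 9.04 and 9.33 in vehicle and 8.63, 8.80 and 8.87 in TCDD fish at 1, 3 and 5 dpa, a mean difference of -0.35 ± 0.11 (adjusted p = 0.107) that passed without vehicle B at 3 dpa (adjusted p = 0.0421). Fgfbp1a, for an Fgf binding protein, differed by 0.85 ± 0.34 (adjusted p = 0.227), and passed without vehicle B at 1 dpa (adjusted p = 0.0299), and fgfrl1a, for a receptor without a kinase domain, by 0.29 ± 0.12 (adjusted p = 0.229). The receptor fgfr3 was at -0.77 at 5 dpa (adjusted p = 0.135), and passed without TCDD C at 3 dpa (adjusted p = 0.0471). Of the 13 members of the Ras-MAPK relay, 0 passed. Ptpn11b, a form of the phosphatase Shp2, had the lowest adjusted p, with a mean difference of -0.39 ± 0.11 (adjusted p = 0.0587, and 0.04 with the block), and passed without vehicle E at 1 dpa or vehicle B at 3 dpa (adjusted p down to 0.0228). Nras, a Ras protein, was at 0.23 ± 0.08 (adjusted p = 0.125), and passed without vehicle B at 3 dpa (adjusted p = 0.0488). The adaptor shc1 was at 0.18 ± 0.09 (adjusted p = 0.327).

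Of 7 other feedback inhibitors 1 passed. Dusp7, an ERK phosphatase related to Dusp6, was at 9.72 ± 0.23, 9.23 ± 0.13 and 9.48 ± 0.28 in vehicle at 1, 3 and 5 dpa, and at 10.16 ± 0.19, 9.96 ± 0.21 and 9.93 ± 0.09 in TCDD fish (SD, n = 3). It rose by 0.73 ± 0.16 at 3 dpa (adjusted p = 0.0415) and by 0.54 ± 0.09 for the mean (adjusted p = 0.00333). The mean call held in all 27 alternatives. A second, dimmer dusp7 probe set had a mean difference of 0.43 and did not pass (adjusted p = 0.13). The 3 dpa call was lost without any 1 of 10 arrays (vehicle D or TCDD A at 1 dpa, vehicle A, B or C or TCDD A or C at 3 dpa, vehicle C or TCDD A or B at 5 dpa, adjusted p up to 0.194), with median centring and with both letter C arrays out. Spred1, a Sprouty-related inhibitor, was at 0.16 ± 0.07 (adjusted p = 0.24) and the phosphatase dusp2 at 0.41 ± 0.29 (adjusted p = 0.558).

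Of 9 other Ets factors and target genes 1 passed, in the opposite direction. Myca, a Myc transcription factor, was at 8.48 ± 0.21 in vehicle and 7.47 ± 0.11 in TCDD fish at 3 dpa. It fell by 1.01 ± 0.21 there (adjusted p = 0.0299) and by 0.46 ± 0.12 for the mean (adjusted p = 0.0457). The 3 dpa call was lost without any 1 of the 6 arrays from 3 dpa, with adjusted p reaching 0.125. That for the mean was kept only without vehicle B at 1 dpa, TCDD D at 1 dpa, vehicle A at 3 or 5 dpa, or TCDD B at 5 dpa, and was lost without any other array (adjusted p up to 0.0968). Etv5a, the paralogue of etv5b, differed by 0.04 ± 0.21, 0.15 ± 0.21 and 0.23 ± 0.21 at 1, 3 and 5 dpa, and did not pass. Ets2 had a mean difference of 0.45 ± 0.22 (adjusted p = 0.354), and the immediate early gene egr1 one of 0.64 ± 0.37 (adjusted p = 0.448).

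**Figure D5:**
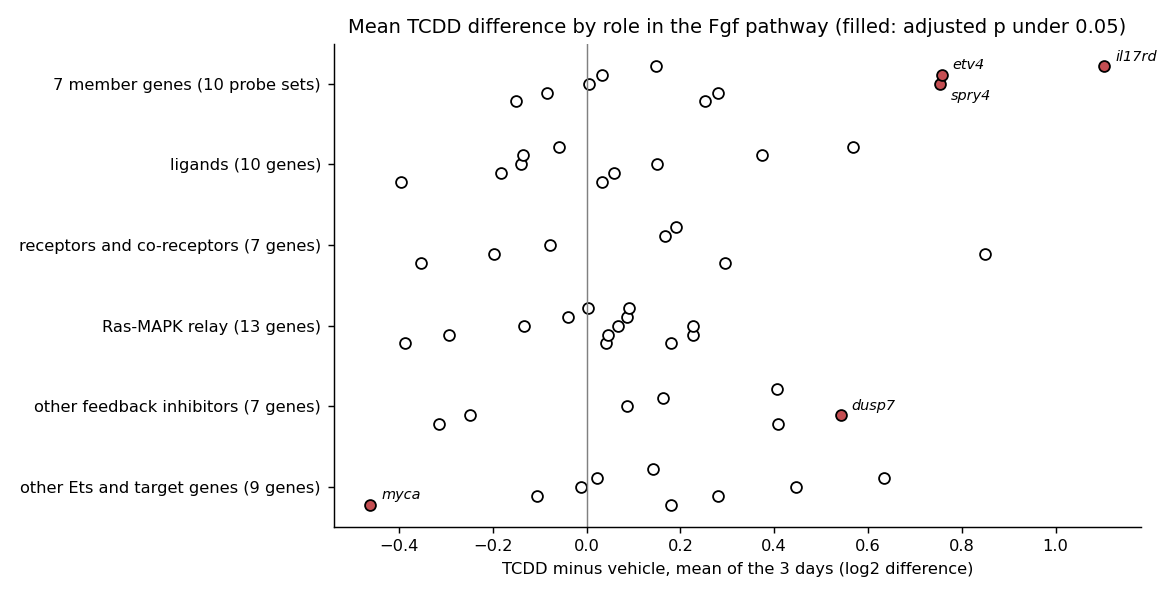
Mean TCDD minus vehicle difference over the 3 days (log2, horizontal axis) for the 10 probe sets and for 46 other pathway genes, 1 point each, in rows by role; vertical offsets only separate the points. Filled points have an adjusted p under 0.05: il17rd, spry4 and etv4 in the top row, dusp7 among the feedback inhibitors and, below 0, myca.

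Summed intensities of some marker lists, which the brightest markers carry, did not overlap between the exposures. The sum of the 10 blastema mesenchyme markers ran from 16080 to 22440 in vehicle and from 9846 to 12260 in TCDD fish at 3 dpa, and from 24630 to 30780 against 12210 to 22800 at 5 dpa. For the 7 osteoblast and ray markers measured, with runx2b and sp7 dim, it ran from 13800 to 19360 against 3835 to 7211 at 3 dpa, and from 23380 to 24960 against 9146 to 17450 at 5 dpa. The 11 epidermal markers summed to between 113600 and 133100 on all arrays, and 0 of them passed with TCDD in any contrast. The 4 pigment cell markers, with dct and tyr dim, summed to 294.1 to 429.7 in vehicle and 117.8 to 207.3 in TCDD fish at 3 dpa. At 5 dpa they summed to 365.5 to 541 in vehicle and 155.7 to 169.2 in TCDD fish. At 1 dpa the osteoblast and ray sums were also apart, at 1270 to 1864 against 752.5 to 1153, as were the pigment cell sums, at 230.2 to 284.1 against 154.5 to 226.8, whereas those of blastema overlapped, at 2167 to 4020 against 2517 to 3661. Some sums were apart with TCDD the higher. The 4 erythrocyte markers summed to 2474 to 4389 in vehicle and 4755 to 6240 in TCDD fish at 3 dpa, with alas2 and slc4a1a dim. The 6 skeletal muscle markers, 5 of them dim, summed to 127.9 to 150.4 in vehicle and 151.5 to 226.5 in TCDD fish at 5 dpa. In these lists 0 markers passed with TCDD. The median log2 difference of the single markers was 0.381 for erythrocytes at 3 dpa. For skeletal muscle at 5 dpa it was -0.135, opposite in direction to the sum. Few single markers of the other lists passed. Of the 10 blastema markers 0 rose and 1 fell at 3 dpa, and 1 rose and 1 fell at 5 dpa. Of the 7 osteoblast and ray markers 2 fell at 3 dpa and 1 at 5 dpa, and of the 4 pigment cell markers 1 fell on each of these days. At 3 and 5 dpa the median log2 difference was -0.567 and -0.0811 for blastema. It was -0.186 and -0.596 for osteoblast and ray, and 0.0554 and -0.237 for pigment cells. A sum that was apart thus does not stand for a shift of every marker in its list. Of the 9 myeloid markers 1 rose and 0 fell at each of 1, 3 and 5 dpa, with sums that overlapped. The median log2 difference of the 9 was below 0 on each day, at -0.62, -0.355 and -0.304. For the mean of the days 1 rose and 2 fell, with a median of -0.398. The part of cell composition in the differences of the Fgf target genes was not tested.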

How the data were processed

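Each of the 18 arrays measured RNA from the pooled fins of 10 fish, and groups and replicate letters came from the labels. The deposited table holds an intensity for every probe set, linear in scale, which the authors made using GCRMA, as the submitters' processing notes name it. Its version is not given in the sources used here. Background correction, normalization and probe summary were kept as deposited. Intensities were analysed as log2(intensity + 1), so dim transcripts show smaller differences than they have. The table holds 15617 probe sets, and the 115 Affymetrix controls among them entered no test. Symbols were read from the platform annotation and brought up to date with RefSeq by Entrez ID. A single symbol belonged to 10795 probe sets, several to 135 and none to 4572, and genes were named from the first kind only.

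The 6 group means were fitted with limma 3.58.1 (R 4.3.3), using lmFit, contrasts.fit and eBayes with trend, on all 18 arrays together. Tests were two-sided, with Benjamini-Hochberg adjustment across all 15502 probe sets within each contrast and a threshold of 0.05. Adjusted p-values in the text are limma's from this fit unless another is named. The fit was tested on simulated data with independent noise on each array and no letter effect, so that test does not cover arrays that share a letter. Plots used matplotlib 3.10.9 under Python 3.11.15. A probe set is called dim where its mean lies under the 40th percentile of all probe sets, a log2 level of 5.44. For a gene outside the 7, the brightest probe set on average was used.

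The 7 genes, the pathway lists and the marker lists were chosen with earlier results of these data known. Every probe set of the 7 genes is named. Other pathway genes were named where they passed in any TCDD contrast, or were among the 3 smallest adjusted p-values of their list for the mean TCDD effect or for vehicle 5 against 1 dpa. A few others, named beside them, were picked with their values in view.

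Pairing by letter was checked on how arrays departed from their group means. Same-day arrays that shared a letter correlated above 0.1 in 7 of 7 cases (from 0.20 to 0.70, with a median of 0.57). Of 20 same-day pairs with unlike letters 2 did, with a median of -0.17. Arrays of unlike days also did so in 23 of 24 cases where they shared a letter (median 0.37). With unlike letters as well, 16 of 84 did (median -0.13). The likeness within a letter was thus not limited to a day. The letters were therefore taken to pair the arrays, and the fit with the letter as a block is given beside a result where it changes the call. What a letter stands for is not stated in the labels. Each array is a pool of fish, so p-values measure the spread between pools and not between fish. Alternatives covered the pseudocount, normalization, dim probe sets, the variance prior, the groups in the fit, the letter block and each array left out. The fits with an array left out had no letter term.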

Additional observations from a re-analysis of the deposited data

How the results depend on the processing

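No member was called in opposite directions by any fit. Changes in the count of member probe sets that passed are listed first where they exceeded a factor of 1.5 or reached 0. At 3 dpa the TCDD count of 1 was 0 with only the groups compared and 0 with both letter C arrays out, and 3 under each of 3 forms of the replicate block (letter fixed, letter random, only letters held by both exposures). At 5 dpa the count of 1 became 2 under each block. The mean count of 3 became 1 without both letter C arrays. For vehicle from 1 to 3 dpa the count of 1 was 2 without dim probe sets, 0 with only the groups compared, 0 without both letter C arrays and 3 under each block. Vehicle from 1 to 5 dpa gave 1 instead of 3 with only the groups compared, and TCDD from 1 to 5 dpa 3 instead of 5 without dim probe sets. Within that factor, the mean count of 3 and the vehicle count of 3 from 1 to 5 dpa rose to at most 4. The TCDD counts of 4 from 1 to 3 dpa and 5 from 1 to 5 dpa rose to at most 6. With 1 array left out in turn, counts ran from 0 to 1 for TCDD at 3 dpa, 1 to 3 for the mean, 0 to 2 and 0 to 3 for vehicle from 1 to 3 and 1 to 5 dpa, and 3 to 4 and 3 to 5 for the same steps with TCDD. Outside the members, the vehicle difference of egr1 between 5 and 1 dpa was -1.5 with only shared letters (adjusted p = 0.0265) and that of fosab -0.59 with the letter fixed (adjusted p = 0.0478), against 0.16 and 0.48, not passing. The cause of these changes was not tested. Over all probe sets, TCDD counts ran from 0 to 98 at 1 dpa, 36 to 735 at 3 dpa, 115 to 647 at 5 dpa and 385 to 1063 for the mean, and vehicle counts from 175 to 1275, 2 to 463 and 1651 to 3143 for 1 to 3, 3 to 5 and 1 to 5 dpa. TCDD course counts ran from 754 to 2383, 0 to 9 and 1710 to 4516 for the same steps, and F test counts from 0 to 27. A fit of only the groups compared was not run for the mean or for the F test, which use all groups. The alternative without both letter C arrays was chosen after seeing the data. Signal over background limits spry2 sets 2 and 3 and fgfr1a.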

Other observations

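Outside the 7 genes, 2 receptor genes were among those that rose in the regenerating fin of vehicle fish. Of the 46 other pathway genes measured, 6 rose and 0 fell from 1 to 5 dpa, where 17.3% of all probe sets passed. The share of these genes that passed was thus under the background. Fgfr4 rose by 1.39 ± 0.24 (adjusted p = 0.00122), from 7.03 to 8.43, and fgfr3 by 1.26 ± 0.25 (adjusted p = 0.00265), from 7.997 to 9.26. The ligand fgf24 rose by 1.93 ± 0.41 (adjusted p = 0.0042), and these 3 calls held in all 28 alternatives. Ptpn11b rose by 0.94 ± 0.18 (adjusted p = 0.00253). Fgfbp2a, for an Fgf binding protein, rose by 2.09 ± 0.67 (adjusted p = 0.0416) and the adaptor gab1 by 0.40 ± 0.13 (adjusted p = 0.0442), and these calls held in 12 and 14 of 28 alternatives (adjusted p up to 0.392 and 0.149).

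Among the other genes chosen by rule for this step, fgf18a, grb2a, dusp2, rasa1a, etv5a, ccnd1 and fosab did not pass, with log2 differences of 0.51, 0.76, -0.97, -0.20, 0.51, 0.32 and 0.48 in that order. The dim fgf18a, with a mean level of 3.25 over all arrays, passed without vehicle B at 5 dpa (adjusted p = 0.015). Its vehicle arrays at 5 dpa ran from 3.16 to 4.37. With the letter blocked, dusp2 and grb2a passed (adjusted p = 0.00498 and 0.0257) and fgfbp2a did not (adjusted p = 0.122).

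In TCDD fish fgf10a rose by 1.84 ± 0.27 from 1 to 3 dpa (adjusted p = 0.000616), from 5.77 to 7.61. In vehicle fish it was at 0.925 ± 0.27 over this step, just short of the threshold (adjusted p = 0.0567). Its F test over days did not pass (adjusted p = 0.306). Fgf24 rose by 1.90 ± 0.41 over the same step (adjusted p = 0.00695). From 1 to 5 dpa in TCDD fish, fgfr4 was at 0.57 ± 0.24 and fgfr3 at 0.24 ± 0.25. Neither passed (adjusted p = 0.113 and 0.538). The F test over days, which asks whether a course differs between exposures, passed for 0 of the 46 genes (lowest adjusted p = 0.265).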
